A study of Caenorhabditis elegans with 18 samples.

Results

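The loss of SET-25 in worms that already lack NRDE-3 was followed in the small RNA of early Caenorhabditis elegans embryos. Libraries of the double mutant set-25;nrde-3 were set against libraries of the single mutant nrde-3, 3 of each, which is 6 of the 18 libraries of the series. The nrde-3 strain carries nrde-3(tm1116) X, and the double mutant carries set-25(n5021) III together with the same nrde-3 allele, so both groups lack NRDE-3 and differ in set-25. The same step with NRDE-3 present, from wild type N2 (Bristol) to set-25(n5021) III, is given where it shows how the 2 backgrounds differ. The remaining groups, with met-2(n4256) III alone or together with nrde-3(tm1116) X, entered the shared estimate of spread and are named where their levels add to a result. All embryos were collected before the bean stage, 60 to 65 h after growth of synchronised first larvae began, the time depending on the strain.

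NRDE-3 is an Argonaute protein of somatic cells. It binds secondary small RNAs made by RNA-dependent RNA polymerases on target transcripts and carries them from the cytoplasm into the nucleus, where the nuclear RNA interference pathway lowers transcription and leads to methylation of lysine 9 of histone H3. SET-25 is a histone methyltransferase that can place the third methyl group on this lysine, a mark of silent chromatin found on repeats and transposons, mostly on the chromosome arms. MET-2 places the first and second methyl groups on the same residue. The comparison asks how small RNA changes when this methyltransferase is lost from embryos in which the nuclear Argonaute is already missing.

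Reads were counted in bins of 20 bp along genome build ce10, without regard to strand. The whole of chromosome I and the first 5.9 Mb of chromosome II are covered. Windows are the sums of such bins over 1 kb. Bins and windows carry no gene names, since the annotation at hand is of another build, and positions are therefore given by coordinate. The mutated genes lie on chromosomes III and X according to the strain labels, outside the covered regions, and the genotypes were not checked. In these regions the nrde-3 libraries held 2115436, 3695174 and 2611531 reads and the set-25;nrde-3 libraries 4027213, 3999457 and 3515896. The 18 libraries ranged from 1680028 to 4384593 reads. Replicates 1 and 2 of met-2;nrde-3 stood apart, with reads in 5.76% and 7.19% of the bins against 11.3% to 17.9% in the other 16 libraries, and counts of calls made without that group are given below. Across the windows, the Spearman correlation between libraries was 0.925 to 0.934 within nrde-3, 0.932 to 0.944 within set-25;nrde-3 and 0.897 to 0.918 between the 2 groups. The growth protocol speaks of 2 biological replicates but each strain has 3 numbered libraries, so the p-values measure the spread between libraries, part of which may be technical. Levels below are read counts scaled by library size and TMM factor (CPM). Changes are given on the log2 scale with an approximate SE. It is the size of the change divided by the square root of the F statistic of edgeR's quasi-likelihood test. The p-values are Benjamini-Hochberg adjusted over all features tested unless another test is named.

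Of the 2 shares of reads compared, that of the right end of chromosome I, where the ribosomal RNA gene array lies, shifted more. Whether the reads there are fragments of ribosomal RNA was not tested. The last 13 kb of the chromosome took 46.0%, 54.5% and 32.9% of the reads in the nrde-3 libraries, a mean of 44.5% ± 10.9 (SD, n = 3), and 68.8%, 58.9% and 56.3% in those of the double mutant, a mean of 61.3% ± 6.56. The groups did not overlap, and their means differed by 16.9 percentage points. The exact two-sided permutation test gave p = 0.1, the smallest value that 3 libraries against 3 allow. With 1 library left out in turn the difference lay between 11.1 and 21.9 points. In the background with NRDE-3 the same share was 27.0% ± 5.15 in N2 and 57.5% ± 4.09 in set-25, so the mean of nrde-3 lay between them. The lowest library of nrde-3, at 32.9%, was level with the highest of N2. The highest of nrde-3, at 54.5%, was above the lowest of set-25, at 52.8%. The covered part of chromosome II took a mean of 11.9% ± 1.95 of the reads in the double mutant and 17.4% ± 3.72 in nrde-3, which do not overlap (exact permutation p = 0.1). Among reads outside the right end of chromosome I its share was 30.9% ± 0.261 and 31.3% ± 0.563, a difference of -0.387 points that lay within the spread of the libraries (exact permutation p = 0.4). Small RNA libraries give shares of a whole, so that fewer cells with a given RNA and less of that RNA per cell cannot be told apart.

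**Figure D1:**
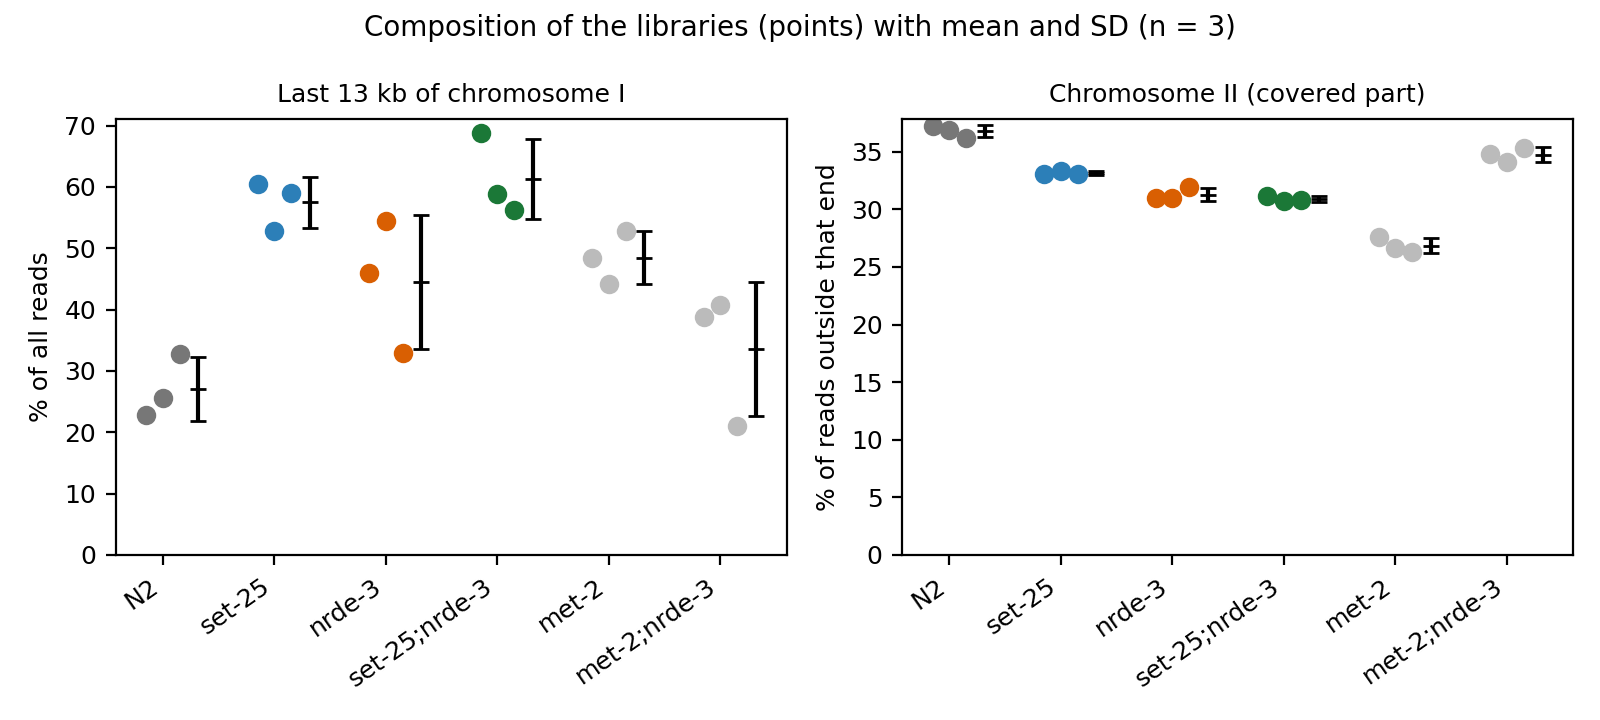
Percent of all reads in the last 13 kb of chromosome I (left) and percent of the reads outside that end on the covered part of chromosome II (right), by group, with a point for each library and the mean and SD beside them (n = 3). The libraries of set-25;nrde-3 lie between 56.3% and 68.8% in the left panel, above those of nrde-3 at 32.9% to 54.5%, and at nearly the same height in the right panel.

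Within those 13 kb the change was uneven. Of the 13 windows, 8 were higher in the double mutant, 2 were lower and 3 did not pass the test. The most abundant rise, chrI:15067020-15068019, held 59728, 88829 and 32482 CPM in the nrde-3 libraries and 183804, 115107 and 99478 in those of the double mutant. No library of the double mutant fell below one of nrde-3, as the choice of named windows requires, and the change was 1.14 ± 0.31 (adjusted p = 0.0224). The windows chrI:15060020-15061019 and chrI:15062020-15063019 rose by 1.11 (adjusted p = 0.0245) and 1.02 (adjusted p = 0.0246). These 3 calls rest on single libraries, since each was lost without replicate 1 of set-25;nrde-3, without replicate 1 or without replicate 3 of nrde-3, and also under DESeq2 and with library totals as the scale. The last 2 windows of the chromosome went the other way, by -0.56 ± 0.12 at chrI:15071020-15072019 (adjusted p = 0.00335) and by -0.89 ± 0.18 at chrI:15072020-15072423, which ends with the chromosome (adjusted p = 0.00167).

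Over all windows, the right end included, rises and falls were close in number and spread along both chromosomes. Of 10730 windows tested, 404 were higher in set-25;nrde-3 than in nrde-3, which is 3.77% of those tested, and 341 were lower, which is 3.18%. At least 2-fold changes were seen in 222 of the higher windows (2.07% of those tested) and in 140 of the lower ones (1.3%), and at least 8-fold changes in 16 and 16. The median size of the change was 1.09 on the log2 scale among the higher windows and 0.91 among the lower ones, while the median over all windows tested was 0.01. All 3 libraries of one group lay on one side of the other 3 in 402 of the 404 higher windows and 328 of the 341 lower ones; over all windows tested, 12.4% had set-25;nrde-3 wholly above nrde-3 and 11.3% wholly below. The windows that moved were richer in reads than most, with a median mean level of 34.0 CPM among the higher and 38.7 CPM among the lower against 8.66 CPM over all windows tested. Windows with more reads are also more easily called. The balance of rises and falls depends on the scale. With library totals in place of TMM factors, which moves the median of all windows by -0.48, 124 windows were higher and 1485 lower, so all changes below are relative to the bulk of the windows. Without the met-2;nrde-3 libraries in the fit, 615 were higher and 519 lower. Without nrde-3 replicate 3 or set-25;nrde-3 replicate 3, 226 and 217 were lower.

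Most runs of called windows were a single window, and some were longer. Runs of 2 or more held 224 of the 404 higher windows and 162 of the 341 lower ones. The higher windows fell into 253 runs of adjoining windows, of which 180 were 1 window and 30 had at least 3, and the lower windows into 239 runs, of which 179 were 1 window and 22 had at least 3. The longest rise covered 12 windows at chrI:14882020-14894019, each by 0.42 to 0.88. The longest fall covered 7 windows at chrI:228001-235000, by -1.06 to -0.36. On chromosome I, 277 of 8031 windows were higher (3.45%) and 248 lower (3.09%), and on the covered part of chromosome II, 127 of 2699 were higher (4.71%) and 93 lower (3.45%). Single megabases were less even. From 3 to 4 Mb of chromosome I, 32 of 566 windows were higher and 9 lower, whereas from 12 to 13 Mb 5 of 459 were higher and 26 lower. From 1 to 2 Mb of chromosome II, 26 of 545 were higher and 40 lower.

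The 12 strongest rises followed different patterns across the 4 strains. The strongest windows of these runs held 0 to 40.6 CPM on average in nrde-3 and 10.6 to 241 CPM in the double mutant. In 8 of the 12 the window was also higher in set-25 than in N2. Of all windows tested, 2.06% were higher in set-25 than in N2. The interaction, which asks whether loss of set-25 had another effect without NRDE-3 than with it, passed the test in 5 of the 12. Over all windows tested it passed in 1.33%. The 12 were picked for the largest change among windows whose libraries do not overlap, and the interaction includes that change.

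A first kind of rise was near zero in N2 and nrde-3 and present in both strains without SET-25. The window chrI:14679020-14680019 held 0.451, 1.48 and 1.55 CPM in the nrde-3 libraries and 33.8, 30.8 and 31.1 in those of the double mutant. It was almost empty in the first group and even across the second, a rise of 4.64 ± 0.30 (adjusted p = 8.81e-12). N2 held 1.17 CPM ± 0.14 (SD, n = 3) and set-25 16 ± 0.321, a rise of 3.74 ± 0.29 (adjusted p = 6.95e-10), and the interaction was 0.90 (adjusted p = 0.655). The window chrI:11495020-11496019 went from 1.80, 3.84 and 2.17 CPM to 47.0, 38.1 and 46.0, a rise of 4.0 ± 0.29 (adjusted p = 4.84e-11), against a rise of 3.42 ± 0.27 from N2 to set-25 (adjusted p = 9.63e-10). On chromosome II, chrII:2269017-2270016 held 2.26, 3.25 and 2.17 CPM in nrde-3 and 25.5, 20.6 and 26.8 in the double mutant. Its rise of 3.21 ± 0.26 (adjusted p = 6.85e-10) stood beside one of 3.46 ± 0.26 with NRDE-3 present (adjusted p = 4.4e-10). The strains without MET-2, which keep SET-25, were not empty at these 3 places either. At the first, met-2 held 12.6 CPM ± 0.926 and met-2;nrde-3 held 26.8 ± 4.94, at the second 20.5 ± 1.57 and 36.3 ± 4.95, and at the window on chromosome II 34.8 ± 3.85 and 27.6 ± 3.74.

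A second kind was low in nrde-3 and came back to the level of N2 once set-25 was also lost. The window chrI:7895001-7896000 held 4.51, 2.36 and 2.79 CPM in the nrde-3 libraries and 30.5, 32.3 and 39.1 in those of the double mutant, a rise of 3.45 ± 0.28 (adjusted p = 6.76e-10). N2 held 33.0 CPM ± 1.20 and set-25 33.1 ± 2.87, so that nrde-3 was the low strain among these 4. Of the strains without MET-2, met-2 was low too at 1.3 CPM ± 0.594, whereas met-2;nrde-3 was near N2 as well, at 29.6 ± 10.2. Loss of set-25 with NRDE-3 present gave 0.01 ± 0.19 (adjusted p = 0.997). The interaction was 3.44 ± 0.35 (adjusted p = 3.84e-07). The window beside it, chrI:7894001-7895000, had the same shape. It held 50.4 CPM ± 5.17 in N2, 48.3 ± 5.26 in set-25, 7.72 ± 1.87 in nrde-3 and 55.3 ± 9.81 in the double mutant. There met-2 held 0.548 ± 0.247 and met-2;nrde-3 held 53.4 ± 9.51. Both windows belong to a run of 3 windows at chrI:7893001-7896000.

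A further kind rose in both backgrounds and more so without NRDE-3. In chrI:3398001-3399000, the rise with the most reads among the 12, the nrde-3 libraries held 37.9, 38.1 and 45.9 CPM and those of the double mutant 233, 259.9 and 229.9. The change was 2.56 ± 0.13 (adjusted p = 1.7e-13), against 0.90 ± 0.12 from N2 at 70.5 CPM ± 7.96 to set-25 at 132 ± 19.1 (adjusted p = 1.19e-05). The difference between these effects was 1.67 ± 0.18 (adjusted p = 6.93e-07). The window chrI:11173020-11174019 held 4.51, 2.95 and 1.86 CPM in nrde-3 and 42.4, 44.3 and 41.7 in the double mutant, a rise of 3.83 ± 0.30 (adjusted p = 2.57e-10). With NRDE-3 present its rise was 1.17 ± 0.25 (adjusted p = 0.00356), and the interaction was 2.66 ± 0.40 (adjusted p = 1.66e-04). It is the peak of a run of 7 windows, chrI:11169020-11176019, that rose by 1.29 to 3.83. Of the strains without MET-2, met-2 held 140 CPM ± 12.1 and met-2;nrde-3 144 ± 3.16 at chrI:3398001-3399000. At chrI:11173020-11174019 they held 1.27 ± 0.617 and 21.6 ± 7.45.

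Other strong rises were highest in the double mutant and lower in the other 3 of these strains. The window chrI:10630020-10631019 held 3.16, 6.5 and 5.89 CPM in nrde-3 and 39.1, 56.0 and 52.3 in the double mutant, with 4.13 ± 0.293 in N2 and 5.94 ± 1.87 in set-25. Its rise was 3.19 ± 0.28 (adjusted p = 2.12e-09), and the interaction was 2.63 ± 0.45 (adjusted p = 8.68e-04). The met-2 single mutant, which has NRDE-3, held more still, at 123 CPM ± 9.13. In chrII:664017-665016 the 3 nrde-3 libraries had no read and those of the double mutant had 8.24, 9.84 and 13.6 CPM, from 93 reads in all. Taking 3 reads over the nrde-3 group as the limit that a count of 0 allows, the double mutant was at least 31.1-fold higher, which covers counting error only. N2 held 1.52 CPM ± 0.478 there, set-25 4.70 ± 1.13 and met-2;nrde-3 6.39 ± 6.20, and the interaction did not pass the test (adjusted p = 0.0719). The rise of chrI:11814020-11815019, from 1.80, 1.18 and 1.24 CPM to 13.2, 12 and 13.9, was 3.21 ± 0.65 (adjusted p = 0.0015), and its interaction of 3.08 did not pass the test (adjusted p = 0.12).

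**Figure D2:**
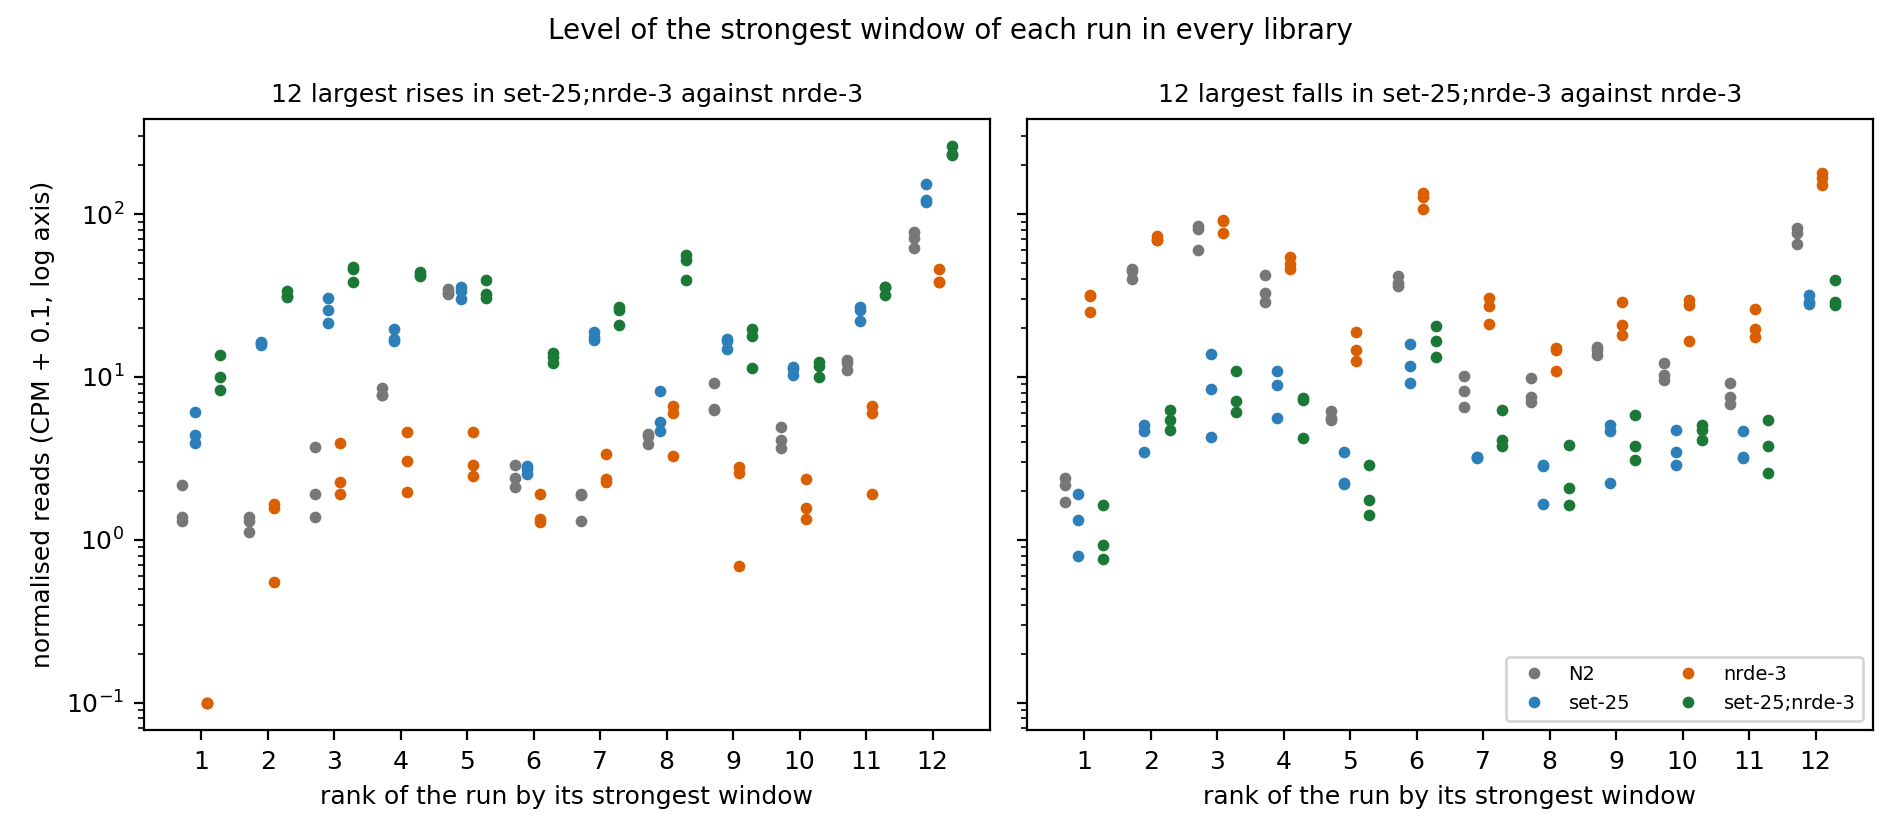
Normalised reads (CPM + 0.1, log axis) of the strongest window in each of the 12 largest rises (left) and 12 largest falls (right), ranked from the largest change, with a point for each library of N2, set-25, nrde-3 and set-25;nrde-3. The green points of set-25;nrde-3 lie above the orange points of nrde-3 in every rise and below them in every fall, as the rule that chose these windows requires. N2 and set-25 take different places from window to window.

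The 12 strongest falls held 13.4 to 165 CPM on average in nrde-3 and 1.01 to 31.8 CPM in the double mutant. In 9 of the 12 the window was also lower in set-25 than in N2, and the interaction passed the test in 3. Of all windows tested, 2.09% were lower in set-25 than in N2, and the interaction passed in 1.33%. The 12 falls were picked in the same way as the rises, for a change that the interaction includes. Of these runs 6 lay on chromosome II.

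Several falls had a low level without SET-25 in both backgrounds. The window chrI:8386001-8387000 held 69.0, 69.7 and 73.1 CPM in the nrde-3 libraries and 5.35, 6.15 and 4.64 in those of the double mutant, a change of -3.70 ± 0.27 (adjusted p = 8.69e-11). It held 43.4 CPM ± 2.96 in N2 and 4.28 ± 0.817 in set-25, a fall there as well. The window chrI:12506020-12507019 went from 91.1, 75.9 and 91.7 CPM to 7.0, 10.8 and 5.96, a change of -3.42 ± 0.23 (adjusted p = 2.11e-11), and from 75.0 ± 12.9 in N2 to 8.77 ± 4.82 in set-25. In both windows nrde-3 and N2 were high and both strains without SET-25 were low. Strains that keep SET-25 but lack MET-2 could be low as well, with met-2 at 1.91 CPM ± 1.57 and 18 ± 6.14 in met-2;nrde-3 at the first window, and with 12.3 ± 1.79 in met-2;nrde-3 but 300.9 ± 27.3 in met-2 at the second.

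Other falls started from a level that was raised in nrde-3. The strongest, chrII:2006017-2007016, held 31.1, 31.9 and 24.8 CPM in the nrde-3 libraries and 0.824, 1.54 and 0.663 in those of the double mutant. N2 held 2.0 CPM ± 0.351 and set-25 1.25 ± 0.562, so nrde-3 stood alone among the 4 strains. The change was -4.78 ± 0.47 (adjusted p = 2.08e-08), against -0.61 with NRDE-3 present (adjusted p = 0.772), and the interaction was -4.17 ± 0.79 (adjusted p = 0.00279). In chrII:1988017-1989016 the nrde-3 libraries held 107, 128 and 134 CPM and those of the double mutant 13.2, 16.6 and 20.5, a change of -2.86 ± 0.19 (adjusted p = 1.82e-11). There the effect was also present from N2 at 38.5 CPM ± 2.95 to set-25 at 12.2 ± 3.46, and the interaction was -1.20 ± 0.29 (adjusted p = 0.0261). The window chrI:12592020-12593019 held 166, 150.0 and 179 CPM in nrde-3 and 28.8, 39.1 and 27.5 in the double mutant, a change of -2.37 ± 0.15 (adjusted p = 2.8e-12). Its fall with NRDE-3 present was -1.35 ± 0.14, and the difference of -1.02 ± 0.20 passed the test (adjusted p = 0.0047). The strains without MET-2 were also below nrde-3 at these places. At chrII:2006017-2007016 met-2 held 2.32 CPM ± 0.247 and met-2;nrde-3 1.24 ± 1.35. At chrII:1988017-1989016 they held 11.5 ± 2.38 and 13.3 ± 3.10, and at chrI:12592020-12593019 5.31 ± 0.918 and 38.3 ± 2.53.

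Falls at abundant windows were small. The most abundant, chrI:9379001-9380000, held 2899, 2563 and 5547 CPM in nrde-3 and 2231, 1962 and 1546 in the double mutant, a change of -0.94 ± 0.19 (adjusted p = 0.00172). A single bin, chrI:9379981-9380000, gave 99.6% of its reads in nrde-3 and 98.8% in the double mutant, and the test on that bin alone gave -0.96 ± 0.31 (adjusted p = 0.111). The windows chrI:7782001-7783000 and chrI:14091020-14092019 changed by -0.45 ± 0.11 (adjusted p = 0.0116) and -0.39 ± 0.10 (adjusted p = 0.0101). Both calls were lost without nrde-3 replicate 3 and without set-25;nrde-3 replicate 2, the second also without set-25;nrde-3 replicate 3.

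At the resolution of single bins fewer changes were called in proportion, with a test that finds less. In simulated data it recovered 16% of 2-fold rises and 18% of 2-fold falls in bins, against 76% and 54% in windows. For 4-fold rises and falls it recovered 86% and 34% in bins, against 100% and 98% in windows. The features changed in the simulation all had a mean level above the median. Recovery among features with fewer reads was therefore not measured. Of 38100 bins tested, 427 were higher (1.12%) and 321 lower (0.843%), and the numbers were 1035 and 707 without the met-2;nrde-3 libraries, and 153 and 1203 with library totals as the scale. With 1 of the 6 libraries left out in turn, the higher bins numbered 180, 529 and 169 without nrde-3 replicates 1, 2 and 3, and 277, 221 and 249 without set-25;nrde-3 replicates 1, 2 and 3. The lower bins numbered 167, 288 and 131 without nrde-3 replicates 1, 2 and 3, and 221, 149 and 138 without set-25;nrde-3 replicates 1, 2 and 3. Nearly all called bins lay in windows called the same way, namely 403 of the higher and 291 of the lower ones, whereas 127 of the 404 higher windows and 94 of the 341 lower ones held a called bin. The right end of chromosome I held 64 of the higher bins and 4 of the lower, among 545 tested there. The richest bin held a median of 21.3% of the reads among higher windows, 21.5% among lower windows and 22.0% among all tested. This share depends on the number of reads, which was higher in the changed windows, so the spread at equal read number was not compared. Windows with over 80% of their reads in 1 bin were 3 of the higher (0.743%), 9 of the lower (2.64%) and 1.38% of all tested.

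**Figure D3:**
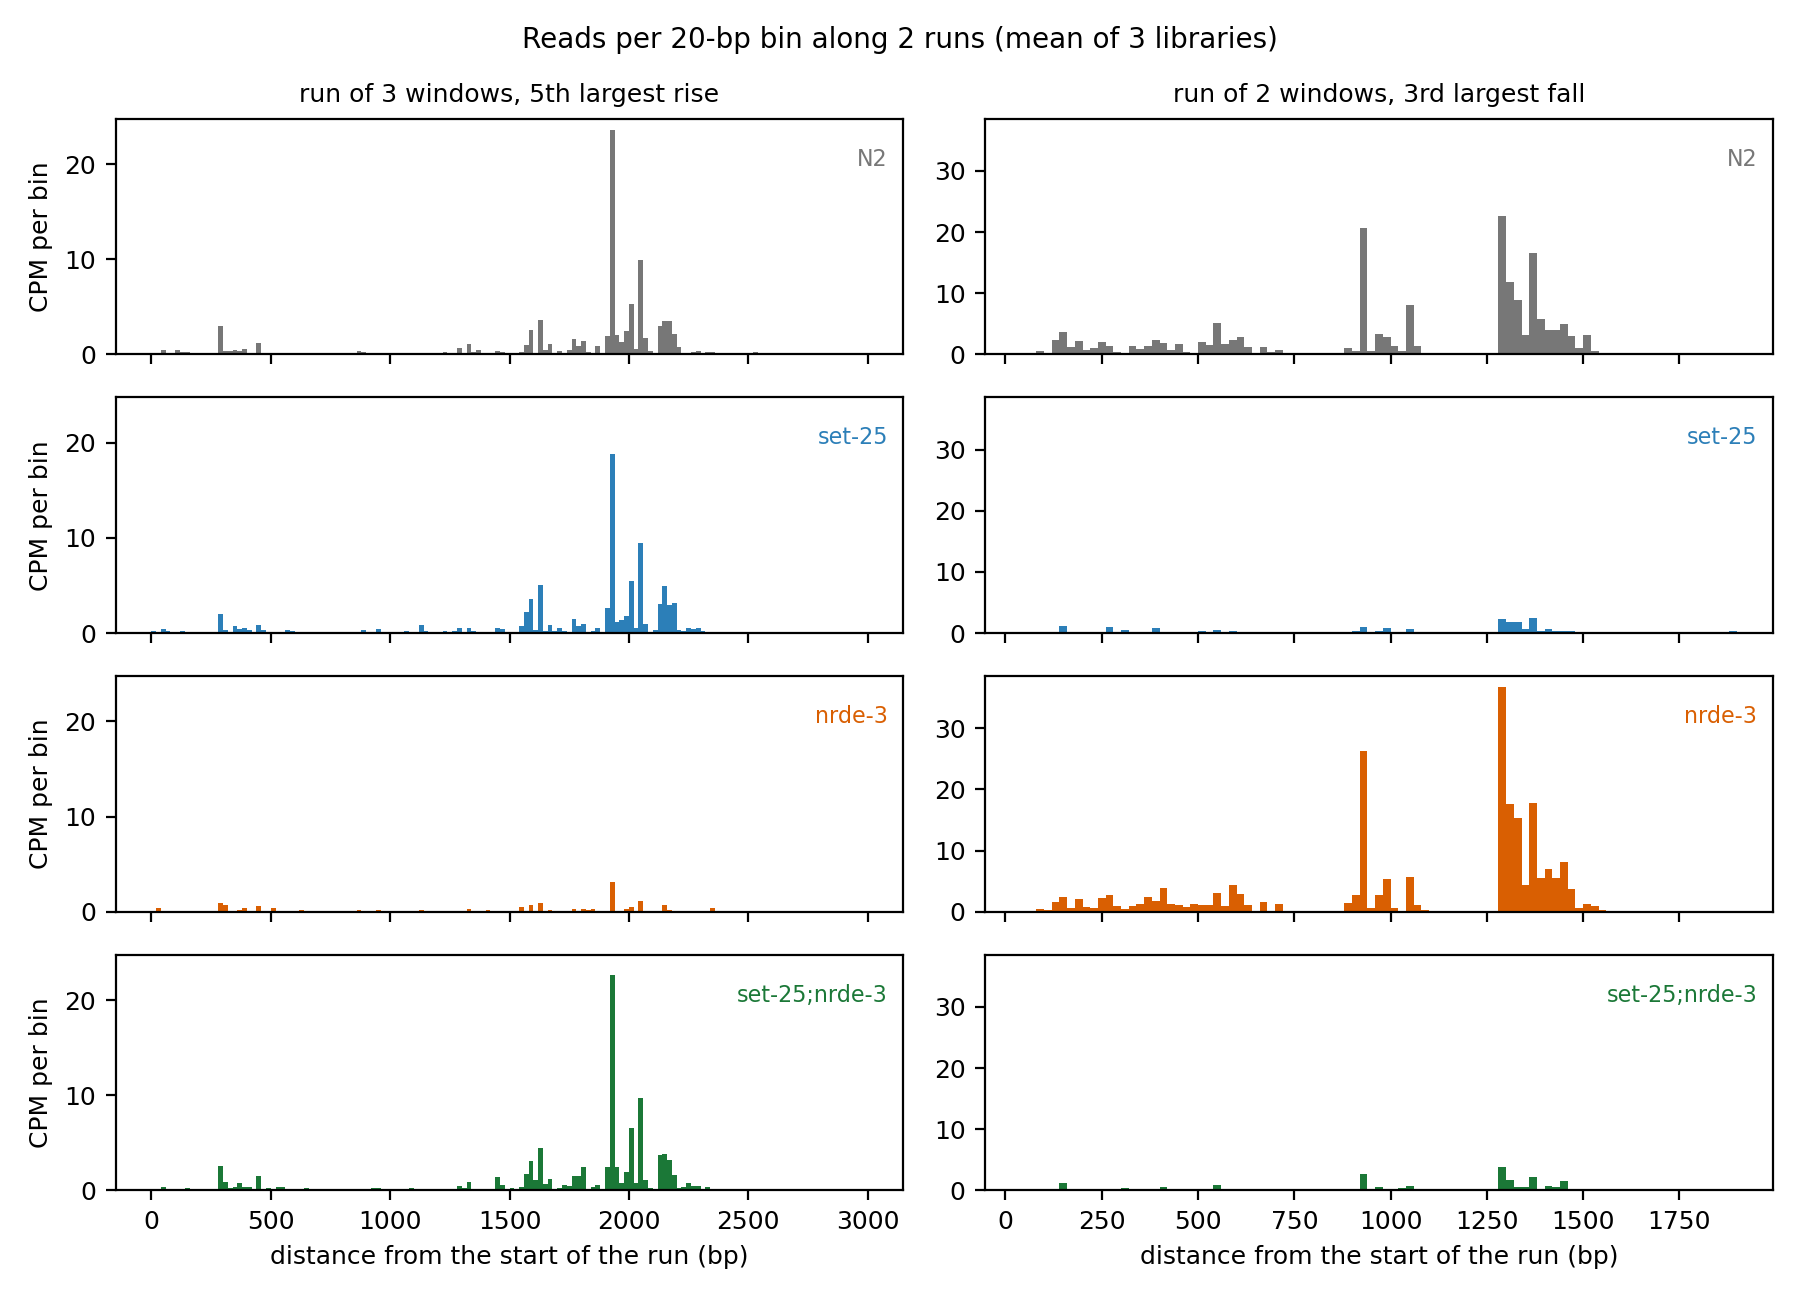
Mean CPM of 3 libraries in each 20-bp bin along the run at chrI:7893001-7896000 (left) and the run at chrI:12506020-12508019 (right), by distance from the start of the run in bp, with 1 row each for N2, set-25, nrde-3 and set-25;nrde-3. On the left nrde-3 is nearly empty and the other 3 strains drawn share one profile of several peaks, and on the right set-25 and set-25;nrde-3 are nearly empty.

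Several changes clustered in longer stretches, 3 of which were chosen for description after their values were seen. On chromosome II, 55 kb at chrII:1956017-2011016 held both directions side by side. Of 42 windows tested there, 7 were higher, by 1.51 to 2.11, and 23 were lower, by -4.78 to -1.35. The higher windows stood at a median of 0.767 times N2 in nrde-3 and at 1.59 times N2 in set-25 and 3.06 in the double mutant. In met-2 they stood at 11.9 and in met-2;nrde-3 at 1.96. For example, chrII:2008017-2009016 held 43.5 CPM ± 4.53 in N2, 73.0 ± 7.67 in set-25, 30.8 ± 4.42 in nrde-3, 134 ± 13.1 in the double mutant and 516 ± 58.4 in met-2. The lower windows had median ratios to N2 of 2.97 in nrde-3, 0.461 in set-25 and 0.436 in the double mutant. In met-2 the median ratio was 0.626 and in met-2;nrde-3 it was 0.473. The lower windows alternated with the higher ones in parts of the stretch. Between the higher windows chrII:1979017-1980016 and chrII:2008017-2009016 all calls were lower. Of the 23 lower windows, 7 were also lower in set-25 against N2. How reads that map to several places were assigned is not given in the sources used here.

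**Figure D4:**
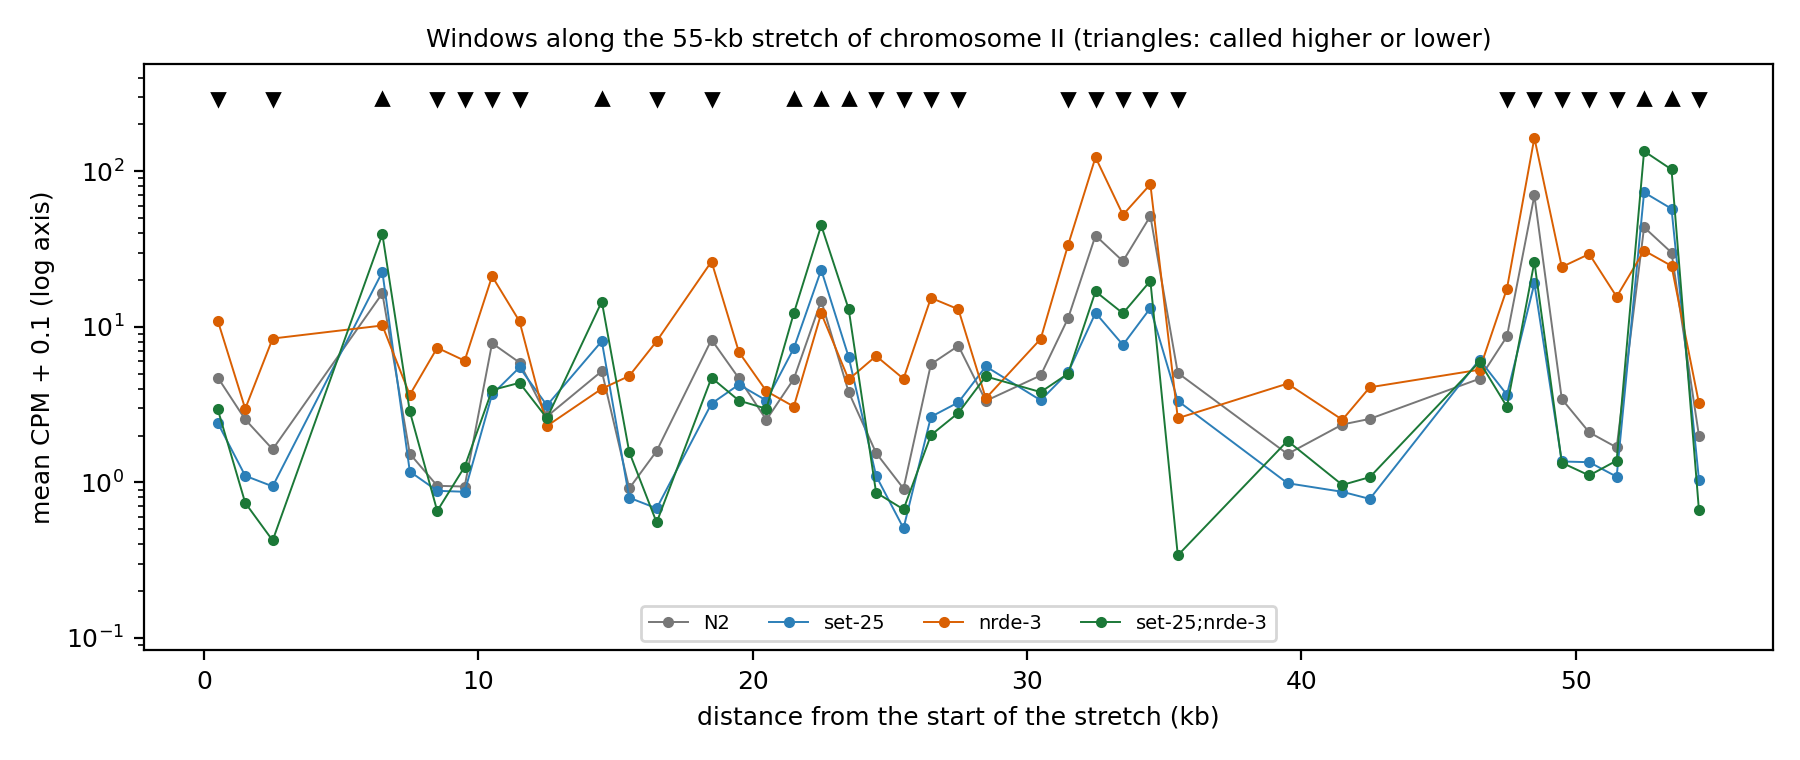
Mean CPM + 0.1 (log axis) of each tested window in the 55-kb stretch of chromosome II by distance from its start in kb, with a line for each of 4 strains and triangles for windows called higher (up) or lower (down) in set-25;nrde-3 against nrde-3. The 7 higher and 23 lower windows interleave in part, with a long section of lower calls alone. The line of set-25;nrde-3 lies above the other strains drawn in the higher windows. That of nrde-3 lies above them in most of the lower windows.

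A stretch of 16 kb at chrI:4342001-4358000 moved one way. Of its 16 windows 14 were higher, by 0.95 to 1.46, and 0 lower, while with NRDE-3 present their changes lay between -0.23 and 0.42 and 0 passed the test. Their levels were 0.435 to 0.645 times N2 in nrde-3 and 1.06 to 1.55 times N2 in the double mutant. They were 1.42 to 3.17 times N2 in met-2 and 0.663 to 1.19 times N2 in met-2;nrde-3. In chrI:4354001-4355000, for example, the means were 149 CPM ± 8.29 in N2, 174 ± 13.6 in set-25, 87.5 ± 2.37 in nrde-3 and 223 ± 12.5 in the double mutant. The third stretch, 129 kb at chrI:12469020-12598019, held falls alone. Of 88 windows tested 22 were lower, by -3.86 to -0.57, and 0 higher, and 16 of the 22 were also lower in set-25 against N2.

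Loss of set-25 with NRDE-3 present was tested with libraries that are not shared with the comparison above, though in the same fit. It gave 221 higher windows (2.06% of those tested) and 224 lower ones (2.09%), and 505 and 523 when only the groups compared were fitted. With library totals as the scale it gave 35 and 1931. Without set-25 replicates 1, 2 and 3 the higher windows numbered 142, 147 and 156, and without N2 replicates 1, 2 and 3 they numbered 125, 136 and 140. Windows higher in both backgrounds numbered 106, which is 26.2% of the 404 and 48.0% of the 221. Those lower in both numbered 102, which is 29.9% of the 341 and 45.5% of the 224. Opposite calls were made in 4 of the 404, higher without NRDE-3 and lower with it, and in 6 of the 341, the reverse. With NRDE-3 present, 2.09% of all windows tested were lower and 2.06% higher. Over the 404 higher windows the median change with NRDE-3 present was 0.33, and over the 341 lower windows -0.41, against -0.01 over all windows tested. It had the same sign in 332 of the 404 and 296 of the 341, and in 58.7% of all windows tested.

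**Figure D5:**
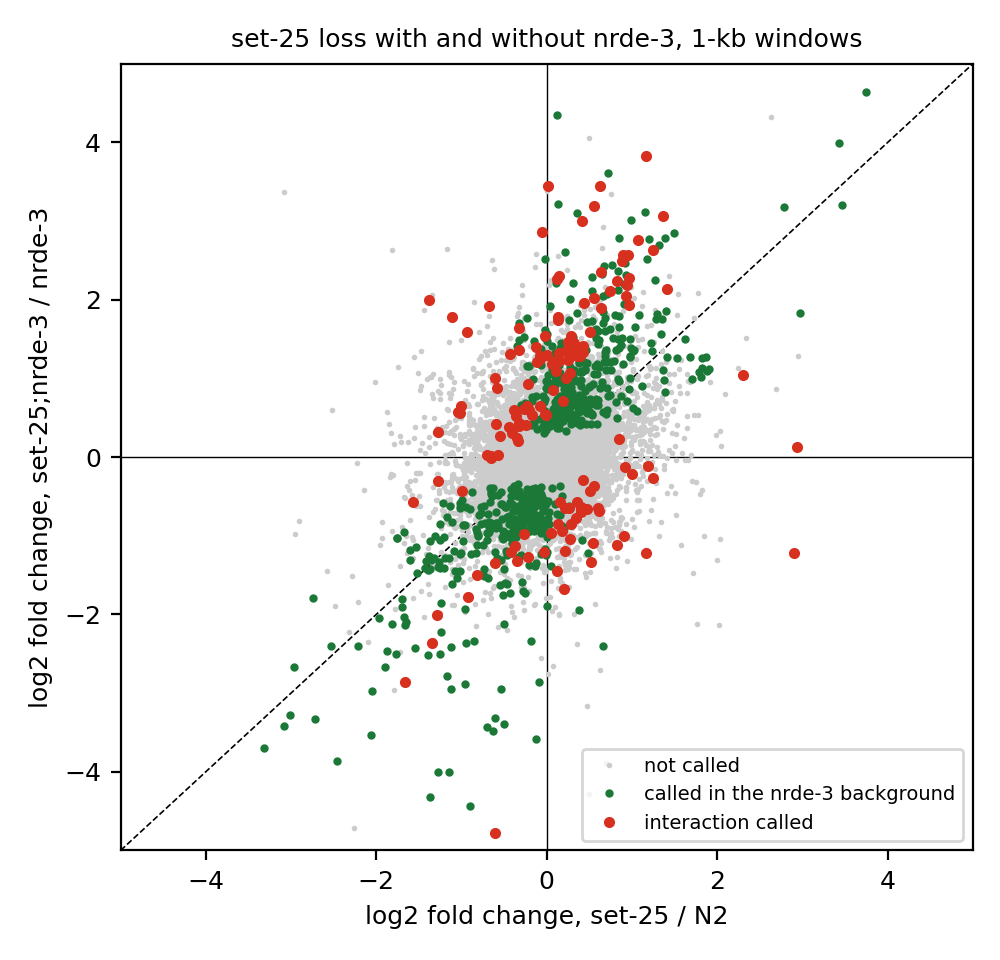
Log2 fold change per window for loss of set-25 with NRDE-3 present (x axis, set-25 against N2) and without it (y axis, set-25;nrde-3 against nrde-3), with windows called on the y axis in green, windows with a called interaction in red and the rest in grey; 1 window lies outside the axes, which end at 5, and the dashed line marks equal change. Most green windows lie on the same side of 0 on both axes.

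The levels of both lists in the strains are given here, each as a median log2 ratio to N2 over the windows. The higher list stood at -0.23 ± 0.03 (SD over 3 libraries) in nrde-3 and 0.72 ± 0.06 in the double mutant, with 0.33 ± 0.03 in set-25. The lower list stood at 0.33 ± 0.02 in nrde-3, -0.63 ± 0.02 in the double mutant and -0.41 ± 0.02 in set-25. In each list, nrde-3 lay on the other side of N2 from both strains without SET-25. The lists were chosen on the nrde-3 and set-25;nrde-3 libraries, and that choice itself sets these groups apart. The values of nrde-3 and set-25;nrde-3 here are therefore a description. In met-2 the higher list stood at -0.14 ± 0.02 and the lower at -0.91 ± 0.01, and in met-2;nrde-3 they stood at 0.35 ± 0.02 and -0.26 ± 0.03.

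The effect of losing set-25 differed between the backgrounds in 143 windows, which is 1.33% of those tested. In 95 (0.885%) the interaction was above 0 and in 48 (0.447%) below, or 177 and 103 when only the groups compared were fitted. Of the 95, 78 were windows higher in set-25;nrde-3 than in nrde-3, and of the 48, 36 were lower there. Over all windows tested, 3.77% were higher and 3.18% lower. The interaction includes this comparison and its libraries, so such an overlap is partly built in. Signs could turn between backgrounds. The window chrII:4172017-4173016 fell from 25.4 CPM ± 3.76 in N2 to 11.6 ± 1.05 in set-25, and rose from 9.75 ± 3.89 in nrde-3 to 33.2 ± 1.69 in the double mutant, an interaction of 2.90 ± 0.40 (adjusted p = 6.59e-05). The reverse was seen at chrI:1735001-1736000, where set-25 at 292 CPM ± 19.7 was above N2 at 203 ± 6.39 and set-25;nrde-3 at 135 ± 7.28 was below nrde-3 at 341 ± 11.3, with an interaction of -1.86 ± 0.15 (adjusted p = 1.09e-08). At chrI:11902020-11903019 the level was 14.4 CPM ± 2.69 in N2, 109.9 ± 10.2 in set-25, 25.7 ± 5.50 in nrde-3 and 28.2 ± 5.93 in the double mutant. Among these 4 strains set-25 alone was high there, and the interaction was -2.81 ± 0.29 (adjusted p = 3.84e-07).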

How the data were processed

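Small RNA from early embryos was sequenced as single-end reads of 50 bases. Per the labels, adapters were clipped and reads collapsed with the FASTX-Toolkit and mapped with QuasR, and the submitters' processing notes name build ce10. The authors deposited raw counts per 20-bp bin, both strands together. Their text also speaks of scaling to total reads and of read length classes, which these whole numbers do not show. Bins were summed to 1-kb windows within each chromosome. Whole-table totals served as library sizes. All 18 libraries were fitted together, 1 coefficient per group, with edgeR 4.0.16 under R 4.3.3 (filterByExpr with a minimum count of 10, TMM factors, quasi-likelihood test, Benjamini-Hochberg adjusted p of 0.05), and the scripts were tested on simulated data. In those simulated data 8.89% of the window calls and 6.10% of the bin calls were features that had not been changed. The interaction is the double mutant minus nrde-3, minus the difference of set-25 and N2. For shares of reads, an exact permutation test (two-sided) was run in scipy 1.17.1; adjusted over the 2 shares, both p-values remain 0.1.

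The windows, lists and tests were chosen with earlier results of these data known. Named are the 12 runs with the largest rise and fall among windows past the threshold whose libraries do not overlap and whose higher group mean is above the median, the 3 most abundant such windows each way, and the 5 largest interactions each way among windows with a mean CPM over the 4 groups above the median. Of these, only a part is printed. Alternatives were RLE size factors, library totals, DESeq2 1.42.0, other filters, the groups compared alone, a replicate block, leaving out the last 13 kb of chromosome I or the met-2;nrde-3 libraries, and each library left out in turn.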

Additional observations from a re-analysis of the deposited data

Results flagged for a closer look

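The effect of losing set-25 differed between worms without and with NRDE-3, by the interaction test of edgeR, in 95 windows above 0 and 48 below 0 of those tested. Among windows whose mean level over the 4 groups was above the median of those tested, the largest above 0 were 3.44 at chrI:7895001-7896000, 3.39 at chrI:304001-305000, 2.92 at chrI:7894001-7895000, 2.90 at chrII:4172017-4173016 and 2.82 at chrI:11174020-11175019, each on the log2 scale. The largest below 0 among these windows were -2.81 at chrI:11902020-11903019, -1.94 at chrI:2777001-2778000, -1.91 at chrI:2776001-2777000, -1.88 at chrI:10501020-10502019 and -1.86 at chrI:1735001-1736000. In chrI:304001-305000 a single bin, chrI:304901-304920, gave 96.2% of the reads in N2, 87.5% in set-25, 61.1% in nrde-3 and 86.3% in the double mutant, from means of 29.4, 11.1, 2.12 and 8.24 CPM. The call at chrI:10501020-10502019 was lost with library totals as the scale and in 8 of the 12 fits that left out 1 of the libraries compared. The interaction of -4.17 at chrII:2006017-2007016 was larger in size, in a window whose mean level was below that median.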

How the results depend on the processing

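Of the 40 named results, 34 kept their call in every alternative run; over 644 refits, 615 kept the call, 29 lost it and 0 reversed. The 3 abundant rises, 2 of the 3 abundant falls and 1 interaction were those that lost it.
With library totals as the scale, higher and lower calls were 124 and 1485 for windows, 153 and 1203 for bins, 35 and 1931 for set-25 against N2, and 41 and 10 for the interaction. Without the met-2;nrde-3 libraries they were 615 and 519, 1035 and 707, 411 lower for set-25 against N2, and 218 and 94. With only the groups compared, 487 bins were lower, set-25 against N2 gave 505 and 523, and the interaction 177 and 103. With no filter 142 bins were lower, and with a minimum count of 100, 106 were higher. The cause of these differences was not tested.
With 1 library left out, windows numbered 285 to 380 higher and 217 to 321 lower, bins 169 to 529 and 131 to 288, set-25 against N2 125 to 156 and 161 to 180, and the interaction 67 to 117 and 32 to 50. The chromosome II share moved from -5.47 points to -0.387 with reads outside the right end of chromosome I as the total, and to between -7.13 and -3.46 with 1 library left out.
The replicate block gave 393 higher and 325 lower windows, of which 387 and 322 were called without it, and changed no named call. Same-numbered libraries of both groups did not deviate together (correlations of -0.04, 0.00 and -0.05), so the numbers were not taken as pairs. Intervals and limits from 0 counts cover counting error only.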
